A study of Mus musculus with 6 samples.

Results

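The genomic loci of Tet1, Sox2, Klf4 and Myc, the genes behind the 4 induced factors of this reprogramming system, were followed through the study's maps of 5-hydroxymethylcytosine (5hmC) and 5-methylcytosine (5mC). The members were the peaks that share at least 1 bp with an interval set around each gene on the mouse build mm9. The intervals were chr10:62255001-62355000 for Tet1 (100 kb), chr3:34535001-34565000 for Sox2 (30 kb), chr4:55525001-55560000 for Klf4 (35 kb) and chr15:61805001-61835000 for Myc (30 kb). Together they held 103 of the 663518 peaks in the 6 lists, 62 of 5hmC and 41 of 5mC.

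The study mapped both marks by antibody precipitation of sonicated genomic DNA at 3 stages, with 1 library per stage and mark. All cells carried the OG2-GFP/Rosa26-M2rtTA background, a green fluorescent reporter of Oct4 (Pou5f1) activity and a doxycycline-controlled transactivator. The fibroblasts were taken at passage 4 from mice derived from TSKM iPS cells (Tet1, Sox2, Klf4 and c-Myc), the day-3 cells were such fibroblasts at passage 4 given doxycycline for 3 days, and the iPS cells were a line of this system at passage 10 to 15. The 5hmC antibody was polyclonal (Active Motif) and the 5mC antibody monoclonal (Calbiochem). The day-3 cells had been moved to ES medium along with the doxycycline. The iPS line was kept on feeders, which were removed by re-plating before collection. With 1 library per stage and mark there was no replicate error and no test between stages, so that each difference below is between single libraries. Read depth was unknown, so each locus is set beside the whole list of the same library.

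Tet1 is a dioxygenase that oxidises 5mC to 5hmC and further, which can lead to loss of the methyl group. Sox2 is an HMG-box transcription factor of pluripotent and neural stem cells, Klf4 is a zinc-finger factor of epithelia and pluripotent cells, and Myc is a basic helix-loop-helix factor that drives growth. In embryonic stem cells the native Tet1 and Sox2 genes are active, while fibroblasts usually transcribe Klf4 and Myc but not Sox2. 5mC over a gene's start usually goes with silence, and CpG-rich starts are usually free of it. 5hmC is common over enhancers and active gene bodies.

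Both marks sit on the cytosine of CpG, and capture by antibody grows with the number of modified CpG on a fragment. The start regions of the genes are therefore shown with each CpG in capitals. They are RefSeq windows of 300 bases, from 250 before to 50 after the gene's start, on GRCm38.p6. RefSeq windows matched 3 of the 4 genes (Tet1, Sox2 and Klf4). The windows lie at chr10:62887275-62887574 on the minus strand for Tet1, chr3:34649745-34650044 on the plus strand for Sox2 and chr4:55532426-55532725 on the minus strand for Klf4. These GRCm38.p6 positions cannot be compared with the mm9 positions of the peaks.
Tet1: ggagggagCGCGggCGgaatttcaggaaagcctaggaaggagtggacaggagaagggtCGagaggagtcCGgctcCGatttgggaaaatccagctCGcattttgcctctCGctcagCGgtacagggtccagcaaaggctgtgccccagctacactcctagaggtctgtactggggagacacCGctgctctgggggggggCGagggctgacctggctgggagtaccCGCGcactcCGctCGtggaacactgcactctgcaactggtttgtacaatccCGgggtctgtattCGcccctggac
Sox2: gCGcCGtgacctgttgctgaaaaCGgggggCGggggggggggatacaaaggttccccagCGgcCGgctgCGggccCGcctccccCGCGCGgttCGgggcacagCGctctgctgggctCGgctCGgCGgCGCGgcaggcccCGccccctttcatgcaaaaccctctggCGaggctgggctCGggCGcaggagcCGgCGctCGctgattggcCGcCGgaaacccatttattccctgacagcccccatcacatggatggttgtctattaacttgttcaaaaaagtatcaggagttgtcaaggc
Klf4: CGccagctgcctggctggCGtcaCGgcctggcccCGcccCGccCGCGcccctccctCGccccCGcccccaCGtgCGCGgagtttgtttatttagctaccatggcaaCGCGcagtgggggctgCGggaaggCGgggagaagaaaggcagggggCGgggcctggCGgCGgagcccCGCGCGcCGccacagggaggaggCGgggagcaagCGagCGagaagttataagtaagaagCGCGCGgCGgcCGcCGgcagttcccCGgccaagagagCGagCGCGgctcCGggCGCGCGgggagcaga
The motif searched was CG, which reads the same on both strands. The Klf4 window held 40 CpG, the Sox2 window 27 and the Tet1 window 17, against a median of 7 over all 32851 windows. At least as many CpG were found in 3.91%, 15.5% and 31.4% of all windows, respectively, and at least 1 in 94.6%. The Klf4 window, at 74.3% G and C, had 0.974 times the CpG that its base composition would give, the Sox2 window 0.819 times and the Tet1 window 0.607 times. No annotation of mm9 was used here, so peaks were not assigned to starts, exons or introns. Transgene copies of the 4 genes may add reads over exons and cannot be told apart from the native genes in these lists, and their part in the results below was not tested.

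Peaks of 5hmC at the 4 loci were few in fibroblasts and many at the later stages, whereas 5mC in the full lists covered most at day 3 and, in iPS cells, was listed at Tet1 only. Tet1 has the longest interval. An iPS 5mC peak was found in 55.8% of autosomal tiles of 100 kb, 38.4% of 35 kb and 35.8% of 30 kb. Over all tiles, a lack of iPS 5mC was thus the more common state at the lengths of the other 3 intervals. Among 35 kb tiles with 3 fibroblast 5mC peaks, as at Klf4, 18.7% lacked it. Among 30 kb tiles with 1 such peak, as at Myc, 57.6% did. Of 30 kb tiles with 5 iPS 5hmC peaks, as at Sox2, 0.742% had no 5mC peak at any stage. These 3 shares were computed after the values at the loci were seen. Over the 195 kb of the 4 intervals, 5hmC peaks covered 2651 bp in fibroblasts (4 peaks), 26743 bp at day 3 (24 peaks) and 41218 bp in iPS cells (34 peaks). Day 3 thus had 10.1 times and iPS cells 15.5 times the covered length of fibroblasts, where the whole lists had 3.55 and 5.24 times on the autosomes. The fibroblast value rests on 4 peaks and was 739 bp with the intervals narrowed by 5 kb on each side and 4032 bp with them widened by 10 kb. 5mC peaks covered 16245 bp in fibroblasts (13 peaks), 24621 bp at day 3 (22 peaks) and 7969 bp in iPS cells (6 peaks). These lengths were 1.52 and 0.491 times that of fibroblasts, close to the 1.53 and 0.538 times of the whole lists. With lists cut to equal numbers of peaks by score, the order of the first 2 stages turned, to 12881 bp in fibroblasts and 12696 bp at day 3. Pooled over the 195 kb, the intervals were more covered by peaks than the autosomes in 5 of the 6 lists. The autosomal span was not matched to the intervals for genes or CpG content, so whether other intervals around genes show the same was not tested. The pooled share was 1.66 to 2.74 times that of the list over the autosomal span in these 5, and 0.923 times in fibroblast 5hmC. Single loci differed. For 5hmC at day 3 and in iPS cells the ratio was 1.31 to 5.01 over the 4 loci. For iPS 5mC it was 3.23 at Tet1 and 0 at Sox2, Klf4 and Myc. For 5mC in fibroblasts and at day 3 it was 0 at Sox2, and 0.819 and 0.932 at Myc.

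**Figure D1:**
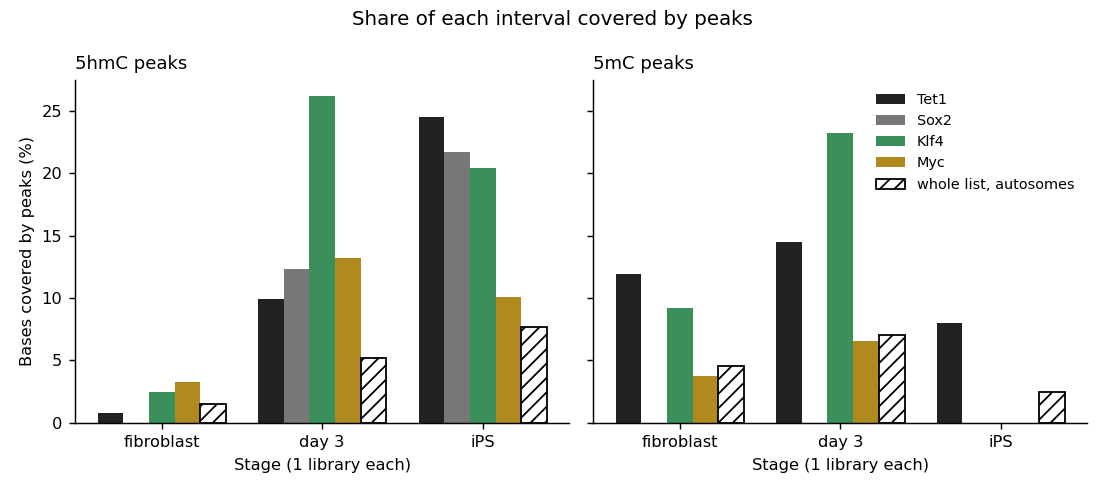
Share of each interval's bases covered by 5hmC peaks (left) and 5mC peaks (right), in percent, at the 3 stages, with 1 library per bar and no error. Hatched bars give the share of the autosomal span that the whole list covers. In iPS cells 5hmC covered 24.5% of the Tet1 interval and 5mC was listed at Tet1 alone, the longest interval. An iPS 5mC peak was found in 55.8% of autosomal 100 kb tiles, 38.4% of 35 kb and 35.8% of 30 kb.

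**Figure D2:**
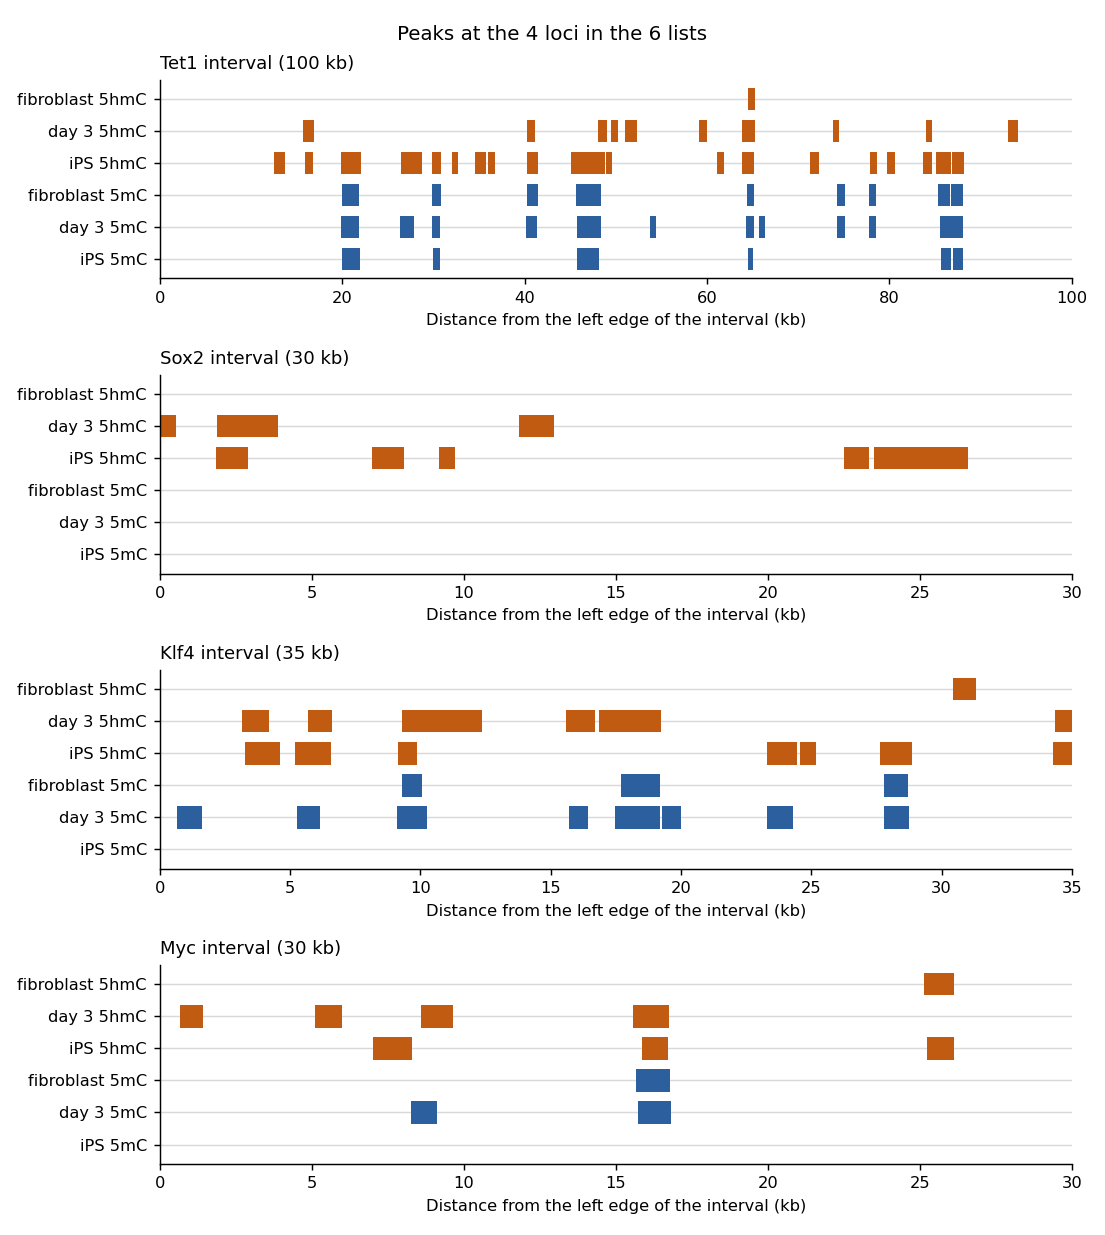
Peaks of the 6 lists along each interval, drawn to scale in kb from the interval's left edge, with 5hmC in orange and 5mC in blue. At Tet1 5 of 24 stretches carried 5mC at all 3 stages, against 12.7% of autosomal stretches, and also 5hmC in iPS cells. Most autosomal stretches with fibroblast and iPS 5mC also had iPS 5hmC (30142, against 8801 without). The Sox2 interval had no 5mC peak at any stage.

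At Tet1, 5hmC covered more of the interval at each later stage, and the main 5mC stretches were kept in iPS cells. 5hmC peaks covered 799 bp in fibroblasts (2 peaks), 9925 bp at day 3 (10 peaks) and 24517 bp in iPS cells (19 peaks). iPS cells had 30.7 times the covered length of fibroblasts and 2.47 times that of day 3, against 5.24 and 1.47 times over the whole lists. 5mC peaks covered 11904 bp (9 peaks), 14548 bp (12 peaks) and 7969 bp (6 peaks) at the same stages. The day-3 length was 1.22 times that of fibroblasts, but lay 1510 bp below it when the lists were cut to equal numbers of peaks by score. Peaks as such are common at this length. Of all autosomal tiles of 100 kb, 65.8%, 68.5% and 72.6% held a 5hmC peak and 65.7%, 78.4% and 55.8% a 5mC peak, in the order fibroblast, day 3, iPS. As much iPS 5hmC as at Tet1 was found in 8.93% of the tiles, as much iPS 5mC in 8.86% and as much fibroblast 5mC in 12.6%, while 52.0% had as much fibroblast 5hmC. For day 3 the shares were 19.0% for 5hmC and 17.5% for 5mC.

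The peaks at Tet1 formed 24 separate stretches, of which 13 held 5hmC alone, 2 held 5mC alone and 9 held both marks at some stage. 5mC was present at all 3 stages in 5 of them, and each of these 5 also had 5hmC in iPS cells. Of all autosomal stretches, 12.7% had 5mC at the 3 stages. Among autosomal stretches with 5mC in both fibroblasts and iPS cells, 30142 had iPS 5hmC and 8801 did not. Having iPS 5hmC was thus the common state for such stretches. The stretch at chr10:62274840-62277063 held the best-scoring peak of the locus in 4 lists. The score is the value that the authors' peak caller gave and is used here to rank peaks within a list. The exception is the setting that keeps scores of at least 100 in every list. Median scores ran from 76.28 (iPS 5mC) to 116.83 (day-3 5hmC), so that setting keeps unequal shares of the lists. The fibroblast 5mC peak there (1932 bp wide) ranked 475 of 104011, the day-3 5mC peak (1925 bp) 483 of 165869 and the iPS 5mC peak (1923 bp) 221 of 61171. The iPS 5hmC peak, 2224 bp wide, ranked 143 of 174079. Neither fibroblasts nor day-3 cells had a 5hmC peak on this stretch, so its 5hmC was listed in iPS cells alone.

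The stretch at chr10:62300080-62305264 was covered in every list but fibroblast 5hmC. Its 5mC peaks ranked 1260 in fibroblasts (2729 bp wide), 2075 at day 3 (1858 bp, the higher of 2 peaks) and 451 in iPS cells (2466 bp). Its iPS 5hmC peak, at 3740 bp the widest of the 103, ranked 1388. The day-3 5hmC peaks lay at its right side, from 62303036 to 62304019 and from 62304513 to 62305264. The stretch at chr10:62340089-62343200 had 5mC in 2 peaks in fibroblasts, 1 peak of 2523 bp at day 3 (rank 858) and 2 peaks in iPS cells, with 2 iPS 5hmC peaks (ranks 12110 and 5751) and no earlier 5hmC. The stretch at chr10:62284835-62285861 showed the same order, with 5mC at each stage and 5hmC in iPS cells alone. At chr10:62318815-62320222 all 6 lists had a peak. This held for 1 of the 49 stretches joined from peaks that touch the 4 intervals. Over the autosomes 3991 of 295126 stretches (1.35%) had a peak in all 6 lists, so a count of 1 lies near that share. The iPS 5mC peak there scored 50.09 and ranked 60995 of 61171, near the bottom of its list. The higher of the 2 fibroblast 5hmC peaks at Tet1 also lay on this stretch, with a score of 174.38 and rank 7874 of 42301.

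5mC listed in fibroblasts was not listed in iPS cells at 3 further stretches of the Tet1 interval. Those at chr10:62295199-62296512 and chr10:62332732-62333643 had 5hmC in iPS cells, and chr10:62328774-62330117 had neither mark. The last of these had carried a day-3 5hmC peak, which ranked 74455 of 116087. The best-scoring day-3 5hmC peak of the locus, chr10:62270691-62271864 (score 520.13, rank 10733), overlapped an iPS 5hmC peak and no 5mC peak. In the left part of the interval, from 62255061 to 62267566, no list had a peak over 12.5 kb. RefSeq places Tet1 between the protein-coding genes Ccar1 and Slc25a16 on GRCm38.p6. Whether the mm9 interval reaches them was not determined.

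At Sox2, 5hmC was listed from day 3 on and 5mC at no stage. 5hmC peaks covered 0 bp in fibroblasts, 3694 bp at day 3 (3 peaks) and 6519 bp in iPS cells (5 peaks), or 12.3% and 21.7% of the interval. iPS cells thus had 1.76 times the covered length of day 3, against 1.47 times over the whole lists. The size of this difference depended on the settings, with 1150 bp and 3880 bp when the interval was narrowed by 5 kb on each side and 3152 bp and 4147 bp at a score of at least 100. A 5hmC peak was present in 35.4%, 49.4% and 55.1% of autosomal 30 kb tiles at the successive stages. A lack of 5hmC in fibroblasts was thus the more common state. Coverage as wide as that of Sox2 was found in 14.7% of tiles at day 3 and 12.6% in iPS cells.

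Inside the interval, only the stretch at chr3:34536849-34538883 had 5hmC both at day 3 (2002 bp, score 510.27, rank 11024) and in iPS cells (1052 bp, rank 39549). The best-scoring iPS peak, chr3:34558493-34561587, was 3095 bp wide and ranked 4793 of 174079. It had no overlapping peak in the other lists. The day-3 peak at chr3:34546811-34547960 (rank 44822) had no counterpart in iPS cells. The third day-3 peak, chr3:34534622-34535542, crossed the left edge, and its part outside shared 187 bp with iPS 5hmC, 191 bp with fibroblast 5hmC and 72 bp with day-3 5mC. To the right of the day-3 peak that ends at 34547960, from 34547961 to 34557510, no list had a peak. RefSeq gives the long non-coding RNA Sox2ot as overlapping Sox2, so a peak in the interval need not belong to Sox2 itself.

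Tiles with no 5mC peak at any stage made up 38.4% of all 30 kb tiles. Among tiles with 5 iPS 5hmC peaks, the number at Sox2, they made up 0.742% (28 of 3772). This second share was computed after the values at Sox2 were seen. The lack of 5mC depends on the left edge of the interval. The nearest 5mC peaks outside it ended 0.739 kb (fibroblasts), 0.307 kb (day 3) and 0.896 kb (iPS cells) away, and fibroblast 5hmC had a peak 0.188 kb away. With the interval widened by 10 kb on each side, 5mC covered 2329 bp, 3538 bp and 858 bp at the 3 stages, and 5hmC 989 bp, 6449 bp and 11734 bp.

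Of the 4 intervals, Klf4 had the largest share covered at day 3, for both marks in the full lists. With lists cut to equal numbers of peaks by score, day-3 5mC covered 2852 bp of its 35 kb and 8737 bp of the 100 kb at Tet1, a slightly larger share at Tet1. 5hmC peaks covered 874 bp in fibroblasts (1 peak), 9179 bp at day 3 (7 peaks) and 7146 bp in iPS cells (7 peaks), or 2.50%, 26.2% and 20.4% of the interval. 5mC peaks covered 3217 bp (3 peaks), 8110 bp (8 peaks) and 0 bp. Day 3 had 10.5 times the 5hmC and 2.52 times the 5mC length of fibroblasts, against 3.55 and 1.53 times over the whole lists. The fibroblast 5hmC value rests on 1 peak with a score of 80.19, and was 0 bp at a score of at least 100. From day 3 to iPS cells the 5hmC length was 0.779 times as large where the whole list was 1.47 times as large. That order turned with wider edges, to 9743 bp at day 3 and 12830 bp in iPS cells with 10 kb more on each side. A 5hmC peak was found in 39.0%, 51.9% and 57.5% of autosomal 35 kb tiles at the 3 stages and a 5mC peak in 49.3%, 61.9% and 38.4%. As much day-3 5hmC as at Klf4 was found in 3.75% of the tiles and as much day-3 5mC in 8.18%. The shares were 13.8% for iPS 5hmC, 17.9% for fibroblast 5mC and 22.2% for fibroblast 5hmC.

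The day-3 5hmC peak at chr4:55534302-55537361 had the highest score among the 24 day-3 5hmC peaks at the loci. It was 3060 bp wide, with a score of 2850.15 and rank 373 of 116087. At its left end it shared 775 bp with a fibroblast 5mC peak of 796 bp (rank 76818) and 964 bp with a day-3 5mC peak of 1144 bp (rank 38290). In iPS cells a 5hmC peak of 752 bp remained at that end, with rank 122228 of 174079. The wide day-3 peak thus had no iPS counterpart over most of its length.

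The highest 5mC of the locus lay to the right of it. The fibroblast 5mC peak at chr4:55542690-55544199 scored 515.86 and ranked 2249 of 104011, and the day-3 5mC peak at chr4:55542474-55544181 scored 1342.06 and ranked 1414 of 165869. A day-3 5hmC peak of 1830 bp, chr4:55542402-55544231, covered the whole of both, with rank 23135. Another day-3 5hmC peak, chr4:55540580-55541722, lay beside it with a score of 811.12 and rank 5307. In iPS cells no peak of either mark was listed over 13.4 kb from 55534891 to 55548320. This gap holds the fibroblast and day-3 peaks at chr4:55540580-55544994 and most of the wide day-3 5hmC peak.

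Toward the edges of the interval, 5hmC was shared by day 3 and iPS cells. This held at chr4:55528163-55529602, chr4:55530208-55531619 and chr4:55559260-55560564. The second also had day-3 5mC. The last crosses the right edge, and outside it the day-3 5hmC peak shared 45 bp with fibroblast 5mC, 31 bp with day-3 5mC and 97 bp with iPS 5mC. A stretch at chr4:55552631-55553855 had 5mC in fibroblasts and at day 3 and 5hmC without 5mC in iPS cells. The fibroblast 5hmC peak, chr4:55555434-55556307, was found in no other list. Of autosomal 35 kb tiles with 3 fibroblast 5mC peaks, the number at Klf4, 18.7% had no iPS 5mC peak (889 of 4747, a share computed after the values were seen). The nearest iPS 5mC peak lay 0.467 kb beyond the right edge, and the widened interval held 945 bp of iPS 5mC.

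At Myc, 5hmC was listed at every stage and 5mC in fibroblasts and at day 3. Its 5mC share of the interval was below that of the whole list at each stage. 5hmC peaks covered 978 bp in fibroblasts (1 peak), 3945 bp at day 3 (4 peaks) and 3036 bp in iPS cells (3 peaks). The day-3 length was 4.03 times that of fibroblasts and the iPS length 3.10 times, against 3.55 and 5.24 times over the whole lists. With lists cut to equal numbers of peaks by score, the lengths were 978 bp, 1206 bp and 1276 bp, so that the stages lay much closer together and iPS cells lay 70 bp above day 3 instead of below. The only fibroblast peak lies near the right edge, and with the interval narrowed by 5 kb on each side fibroblasts had 0 bp. 5mC peaks covered 1124 bp (1 peak), 1963 bp (2 peaks) and 0 bp. The second day-3 5mC peak scored 61.92, and with a score of at least 100 day 3 lay 17 bp below fibroblasts. A 5hmC peak was found in 35.4%, 49.4% and 55.1% of autosomal 30 kb tiles at the 3 stages. A 5mC peak was found in 46.7%, 59.3% and 35.8%. As much 5hmC as at Myc was found in 15.6%, 13.5% and 27.0% of these tiles. As much 5mC was found in 32.2% for fibroblasts and 33.7% for day 3. With an iPS 5mC peak in 35.8% of all 30 kb tiles, the lack of 5mC at Myc in iPS cells was the more common state. Of the tiles with 1 fibroblast 5mC peak, 57.6% had no iPS 5mC peak. That number of peaks was taken from the values at Myc themselves.

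A single stretch at Myc, chr15:61820556-61821827, held the best-scoring peak of 3 lists. Fibroblasts had 5mC there (1124 bp, rank 9582 of 104011) and no 5hmC. Day-3 cells had both, with a 5mC peak of 1107 bp (rank 12281) and a 5hmC peak of 1206 bp (rank 29580). iPS cells had 5hmC (867 bp, rank 73042) and no 5mC. At chr15:61830144-61831130 fibroblasts and iPS cells had a 5hmC peak, with ranks 15268 and 159389, and day-3 cells had none. The best-scoring iPS 5hmC peak, chr15:61812018-61813293 (rank 34065), shared 21 bp with a day-3 5mC peak and none with a day-3 5hmC peak. The day-3 5hmC peaks at chr15:61805660-61806429 and chr15:61810093-61811000 overlapped no other list.

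**Figure D3:**
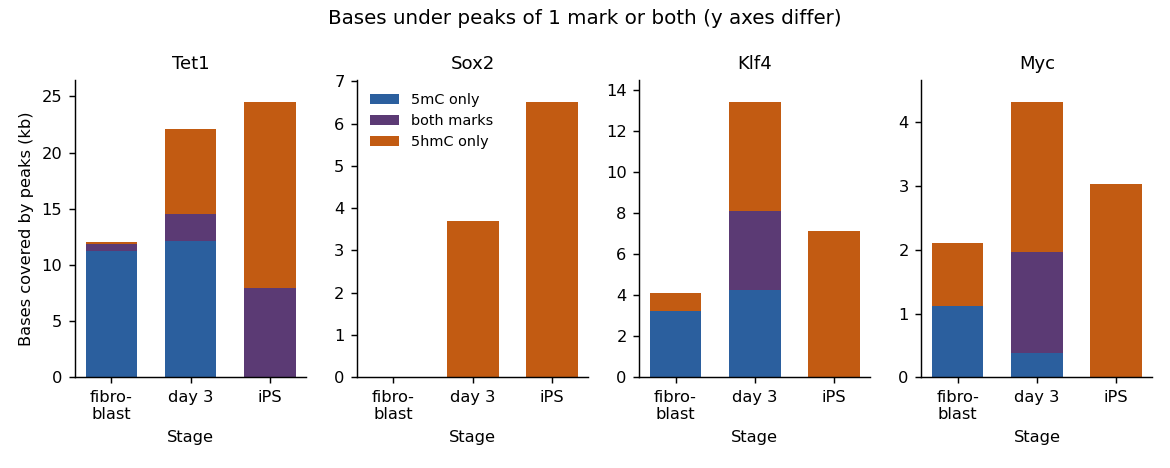
Bases in kb under 5mC peaks only (blue), under both marks (purple) and under 5hmC peaks only (orange), per locus and stage, with 1 library per stage and mark. The y axes differ between loci. In iPS cells every 5mC base at the 4 loci, 7969 bp at Tet1, also lay under 5hmC peaks, against 60.6% over the whole list.

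The marks were then set against each other within each stage. In fibroblasts 671 bp lay under peaks of both marks, all of it at Tet1, which was 4.13% of the 5mC bases at the loci. At day 3 the shared length was 7823 bp (31.8%), of which 3847 bp lay at Klf4, 2392 bp at Tet1 and 1584 bp at Myc. In iPS cells it was 7969 bp, or 100% of the remaining 5mC bases, all at Tet1. The same shares over the whole lists were 7.53%, 23.0% and 60.6%. At day 3, 5hmC covered 80.7% of the 5mC bases at Myc, 47.4% at Klf4 and 16.4% at Tet1. Overlap of peaks does not show both marks on 1 molecule. A change in the share of cells with a mark and a change in the mark within each cell cannot be told apart in such bulk DNA.

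Of the fibroblast 5mC bases, 48.4% were still under 5mC peaks in iPS cells and 81.3% were under 5hmC peaks, against 34.9% and 61.3% over the whole list. The loci differed. At Tet1 66.1% of these bases kept 5mC and 90.9% had 5hmC in iPS cells, at Klf4 0% and 47.3%, and at Myc 0% and 77.1%. At day 3 the share with 5hmC was 19.7% at Tet1, 71.0% at Klf4 and 98.0% at Myc, so that Tet1 was the lowest of the 3 loci at day 3 and the highest in iPS cells. These shares rest on 11904 bp in 9 peaks at Tet1, 3217 bp in 3 peaks at Klf4 and 1124 bp in 1 peak at Myc, so Klf4 and Myc give little precision.

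Counted by peak, all 13 fibroblast 5mC peaks at the loci overlapped a day-3 5mC peak, where 89.7% of the whole list did. In iPS cells 6 of the 13 overlapped a 5mC peak, all at Tet1, against 39.4% of the list, and 11 overlapped a 5hmC peak, against 67.2%. At day 3, 7 of the 13 overlapped a 5hmC peak, against 30.9%. Of the 22 day-3 5mC peaks, 15 overlapped an iPS 5hmC peak, against 57.2%. Of the 24 day-3 5hmC peaks, 13 overlapped an iPS 5hmC peak, against 48.3%. By locus this was 2 of 3 at Sox2, 6 of 10 at Tet1, 4 of 7 at Klf4 and 1 of 4 at Myc. Of the 34 iPS 5hmC peaks, 11 lay on fibroblast 5mC, against 39.9%, and of these 8 were at Tet1. All 6 iPS 5mC peaks lay on iPS 5hmC, against 67.2%. With so few peaks most of these shares are near those of the lists, and peaks of a locus are not independent.

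Joined over the 6 lists, the peaks formed 49 stretches, 24 at Tet1, 13 at Klf4, 7 at Sox2 and 5 at Myc. Of these, 28 held 5hmC alone, 4 held 5mC alone and 17 held both at some stage, where 41.2%, 21.5% and 37.3% of the 295126 stretches of the autosomes did. At the loci only peaks that touch an interval were joined, while the autosomal stretches join all peaks. The edge-crossing stretches chr3:34534622-34535542 and chr4:55559260-55560564 were thus counted as 5hmC alone. Each also shares bases with 5mC peaks outside the interval and would hold both marks by the autosomal rule. Counts by mark, stage and fate would then change. 5hmC was listed in iPS cells alone in 19, at day 3 alone in 11 and at both of these stages but not in fibroblasts in 11. Over all autosomal stretches these shares were 32.5%, 18.6% and 13.5%. Of the 19 stretches whose 5hmC was listed in iPS cells alone, whatever their 5mC, 12 were at Tet1 and none at Myc. Among the 12 stretches with fibroblast 5mC, iPS cells had 5hmC without 5mC in 5, both marks in 5, neither in 2 and 5mC without 5hmC in 0. These fates made up 35.8%, 31.4%, 23.7% and 9.16% of the 96096 autosomal stretches with fibroblast 5mC, and with 12 stretches the counts lie near those shares.

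**Figure D4:**
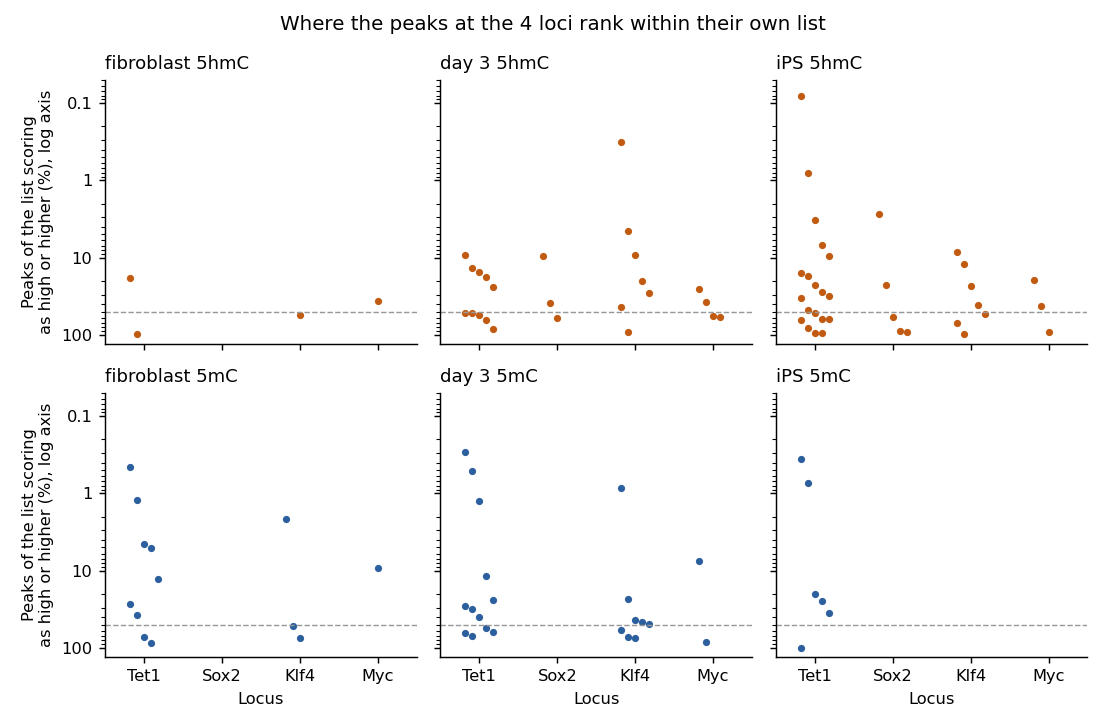
Rank of each of the 103 peaks within its own list, as the percentage of the list's peaks with the same or a higher score, on a log axis with the highest scores at the top. Panels are the 6 lists, points are peaks, the spread along the x axis within a locus only separates points, and the dashed line marks 50%. The best ranks were an iPS 5hmC peak at Tet1 (0.0821%) and a day-3 5mC peak at Tet1 (0.291%).

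Within the lists, 65 of the 103 peaks scored above their own list's median. Peaks in the best-scoring 1% of a list were found at Tet1 in the 3 5mC lists and in iPS 5hmC, and at Klf4 in both day-3 lists. At Sox2 the best rank was that of the wide iPS 5hmC peak (2.75% of the list scored as high), and at Myc that of the day-3 5mC peak (7.40%). Of the 4 fibroblast 5hmC peaks, the highest was at Tet1 (18.6%) and the lowest crossed the left edge of the Tet1 interval with a score of 50.86. In all, 4 of the 103 peaks crossed an interval's edge.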

How the data were processed

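The authors deposited 1 peak list per library, with a chromosome, start, end, name and score per peak. The deposited score came from their peak caller, with no stated unit. Build mm9 and the tools MACS 1.4.1, Bowtie 0.12.7 and CASAVA 1.8 come from the submitters' processing notes. Control library, settings, duplicate handling and read depth were not given in the sources used here, so no interval from counts was possible. Libraries were grouped by title into 3 stages and 2 marks.

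Peaks were counted from 1 bp inside an interval, and covered length was clipped to it. The background was every non-overlapping tile of the interval's length over the 19 autosomes, between the outermost peaks of any list. Stretches joined peaks of the 6 lists from 1 bp of overlap. At the loci only peaks that touch an interval were joined, over the autosomes all peaks. Positions count from 1. No test was made. The named loci are all 4 members. Peaks were named mainly for score or width or as part of stretches shared by stages or marks, and not every list's best-scoring or widest peak is named. Members and rules were chosen with earlier results of these data known. Python 3.11.15, numpy 2.4.6, pandas 2.3.3 and matplotlib 3.10.9 were used, and the counting was checked on 20 simulated runs against bedtools 2.31.1, with 0 differences. Planned comparison genes were left out, since no annotation of mm9 was used here.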

Additional observations from a re-analysis of the deposited data

Results flagged for a closer look

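Between the same stages the marks went in opposite directions at 3 loci, each as a difference in covered length between single libraries. From fibroblasts to iPS cells, the change at Tet1 was 23718 bp for 5hmC and -3935 bp for 5mC, at Klf4 6272 bp and -3217 bp, and at Myc 2058 bp and -1124 bp. From day 3 to iPS cells it was 14592 bp and -6579 bp at Tet1. Whether the marks differ beyond replicate error was not tested. The whole lists moved the same way, with 5.24 and 0.538 times the covered length of fibroblasts in iPS cells for 5hmC and 5mC and 1.47 and 0.351 times that of day 3.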

How the results depend on the processing

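Of the 21 differences between stages at single loci that were not 0, all kept their direction with the peak's centre inside the interval, with edges narrowed by 5 kb and with peaks within 1000 bp joined. With a score of at least 100, 20 did, with edges widened by 10 kb, 20, and with each list cut to its 42301 highest scores, 18. Those that turned were 5mC from fibroblasts to day 3 at Tet1 (-1510 bp with best-scoring peaks) and at Myc (-17 bp with a score of at least 100 and with best-scoring peaks), and 5hmC from day 3 to iPS cells at Klf4 (3087 bp, widened) and at Myc (70 bp, best-scoring peaks). The cause was not tested. The 5hmC length over the 4 loci in fibroblasts was 1717 bp with a score of at least 100, 4032 bp widened and 739 bp narrowed. With best-scoring peaks it was 16688 bp at day 3 and 23752 bp in iPS cells, and 5mC was 12881 bp in fibroblasts and 12696 bp at day 3, which turns their pooled order too. The lack of iPS 5mC at Klf4 and Sox2 did not hold in the widened intervals (945 bp and 858 bp), while Myc had 0 bp there too. With an overlap of at least 50% of the peak, 5 of 13 fibroblast 5mC peaks lay on day-3 5hmC and 10 of 24 day-3 5hmC peaks on iPS 5hmC. Unknown depth limits all comparisons between lists. No paired analysis was possible because each stage and mark had 1 library and no test was made.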

Other observations

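Outside the intervals, the distance to the nearest peak varied between loci and lists, and some of these distances follow. They were not compared with distances over the autosomes, so whether any is unusual was not tested. Beyond Klf4 the nearest iPS 5mC peaks were 12.1 kb to the left and 0.467 kb to the right. Beyond Tet1 the nearest day-3 5hmC peaks were 0.900 kb and 1.23 kb away. Beyond Myc the nearest iPS 5mC peaks were 38.0 kb to the left and 98.3 kb to the right, and the nearest fibroblast 5mC peaks 46.7 kb and 32.6 kb. Beyond Tet1 the nearest 5mC peaks were 20.9 kb to the left and 20.1 kb to the right in fibroblasts and 27.6 kb and 37.7 kb in iPS cells. To the right of Sox2 the nearest day-3 5hmC peak was 337 kb away and the nearest iPS 5hmC peak 5.41 kb. To the left of Myc these distances were 242 kb for day 3 and 2.66 kb for iPS.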
